A study of Homo sapiens with 26 samples.

Results

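The genes described here are TXNIP, 4 alpha-arrestins (ARRDC1, ARRDC2, ARRDC3 and ARRDC4), the glucose-responsive transcription factors MLXIP and MLXIPL with their partner MLX, and the Krüppel-like factor KLF10. They were chosen by name, with earlier results of these data known. They are 9 of the 58735 genes in the deposited table, of which 35380 had at least 1 read. All 9 passed the filter on low counts in both fits used below. They were measured by bulk poly-A RNA sequencing of human airway epithelial 16HBE cells, a bronchial epithelial line immortalised with SV40 large T antigen. CF cells were the gene-edited line 16HBEge with the genotype DeltaF508 CFTR, and WT cells were 16HBE14o- with WT CFTR. The 5 groups were CF cells in high glucose (17.5 mM, 6 libraries), CF cells in normal glucose (5.5 mM, 6 libraries), WT cells in high glucose (5 libraries), WT cells in normal glucose (6 libraries) and, also at 5.5 mM, WT cells that carry the label not polarized (3 libraries). Cells of the other groups grew on Transwells in these media for 7 days, and 2 Transwells were pooled for a sample. The protocol of the not polarized cells is worded like that of the others, and the sources used here do not give how their culture differed. Whether their time in culture matched is not known. Each genotype came as 1 line, so an effect of CFTR and any other difference between the lines cannot be told apart. Whether libraries of 1 group were separate cultures is not in the labels, so each p measures the spread between these samples, which may be technical.

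MLXIP (MondoA) and MLXIPL (ChREBP) are basic helix-loop-helix factors that respond to phosphorylated glucose, pair with MLX and bind carbohydrate response elements, which are pairs of E-box-like sequences. TXNIP is their best known target. It binds thioredoxin, and, like other alpha-arrestins, it is an adaptor that brings ubiquitin ligases of the NEDD4 family to membrane proteins; TXNIP and ARRDC4 lower glucose uptake through the transporter GLUT1 (SLC2A1). KLF10 is a transcription factor induced by TGF-beta and, in liver and other tissues, by glucose through ChREBP.

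Libraries held between 14658319 and 20413839 counts. Of the epithelial markers, 7 of 8 averaged over 1 CPM (counts scaled to TMM-adjusted library size), and their sum ran from 5394 to 7280 CPM, with TP63, a basal cell factor, under 1 CPM. The ciliated list summed to 3.74 to 9.50 CPM, the goblet list to at most 1.04 CPM and the leukocyte list to at most 1.90 CPM, with MUC5AC at 0 in all 26 libraries. In every group of glucose-treated cells the libraries numbered 1 to 3 differed from those numbered 4 and above in many genes, and the labels do not say what these numbers stand for. For the 9 genes, values within each set of numbers are therefore given wherever they change a call. For other genes they are given for some calls only, and a count of lost alternatives can include a set. MLXIP moved with this split in each of the 4 groups: it averaged 70.2 to 72.1 CPM over libraries 1 to 3 and 83.9 to 94.7 CPM over libraries numbered from 4, with no overlap within any group.

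Promoter sequences are shown because TXNIP and ARRDC4, which moved together, are known targets of the Mondo factors, and ARRDC2 is an alpha-arrestin that was not called with them in the glucose comparisons. RefSeq windows (GRCh38.p14) were matched for 8 of the 9 genes, KLF10 being the other. In the 250 bases before each start, 3 motifs were searched on both strands: the E-box CACGTG, a spaced pair, 2 copies of CNCGNG with 5 bases between, and the CCAAT box. They occur in 6.34%, 1.87% and 32.0% of 35116 promoter windows of this length. Capitals mark the matches, with ATTGG being CCAAT read on the other strand, and positions count back from the RefSeq start.
TXNIP, chr1:145996610-145996729, minus strand, bases -150 to -31: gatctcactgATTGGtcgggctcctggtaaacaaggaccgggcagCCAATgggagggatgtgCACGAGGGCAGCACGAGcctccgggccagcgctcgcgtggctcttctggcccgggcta
ARRDC4, chr15:97960483-97960642, plus strand, bases -220 to -61: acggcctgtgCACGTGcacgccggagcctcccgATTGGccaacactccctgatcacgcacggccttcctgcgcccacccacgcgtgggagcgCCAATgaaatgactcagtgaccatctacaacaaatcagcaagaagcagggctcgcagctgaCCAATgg
ARRDC2, chr19:18001064-18001123, plus strand, bases -60 to -1: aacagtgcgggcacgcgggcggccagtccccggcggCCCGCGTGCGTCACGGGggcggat
The TXNIP window held 1 spaced pair, at -88 to -72, with a CCAAT box on each strand upstream of it. The ARRDC4 window held 1 E-box, at -210 to -205, and 3 CCAAT boxes, and the spaced pair was not matched in it. ARRDC2 also matched the spaced pair, at -24 to -8. MLX had an E-box at -50 to -45 and a CCAAT box, and ARRDC1, ARRDC3 and MLXIP had a CCAAT box as their only match. None of the 3 motifs was matched in the MLXIPL window. A match describes letters in a window and is not a measured binding site.

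Levels between genes are compared on FPKM, the deposited values that the authors had scaled to length and total. TXNIP was the highest of the 9 genes in CF cells in high glucose, at 262 ± 11.8 FPKM (SD, n = 6), in WT cells in high glucose, at 183 ± 13.7 FPKM (n = 5), and in WT cells in normal glucose, at 80.0 ± 14.2 FPKM (n = 6). ARRDC3, an alpha-arrestin that acts in the sorting of the beta-2 adrenergic receptor and other membrane proteins, came next in these 3 groups. In WT cells in high glucose its libraries overlapped those of ARRDC4 and were 24.2 ± 4.06 FPKM. In CF cells in normal glucose the order of the first 2 was turned: ARRDC3 averaged 80.3 ± 8.16 FPKM and TXNIP 69.2 ± 22.9 FPKM, with overlapping libraries. In WT cells that were not polarized ARRDC1 was highest, at 23.7 ± 0.72 FPKM (n = 3), and TXNIP came 5th, at 5.18 ± 0.14 FPKM. ARRDC1, known for a role in the budding of vesicles from the plasma membrane, held between 22.9 and 27.6 FPKM as a mean in each of the 5 groups. Among the sensors, MLX (9.04 to 11.1 FPKM as group means) lay above MLXIP (5.59 to 5.94 FPKM), and MLXIPL was the lowest of the 9 genes in every group, at 0.65 to 1.05 FPKM. ARRDC2 and MLXIP overlapped in all 4 groups of polarized cells.

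**Figure D1:**
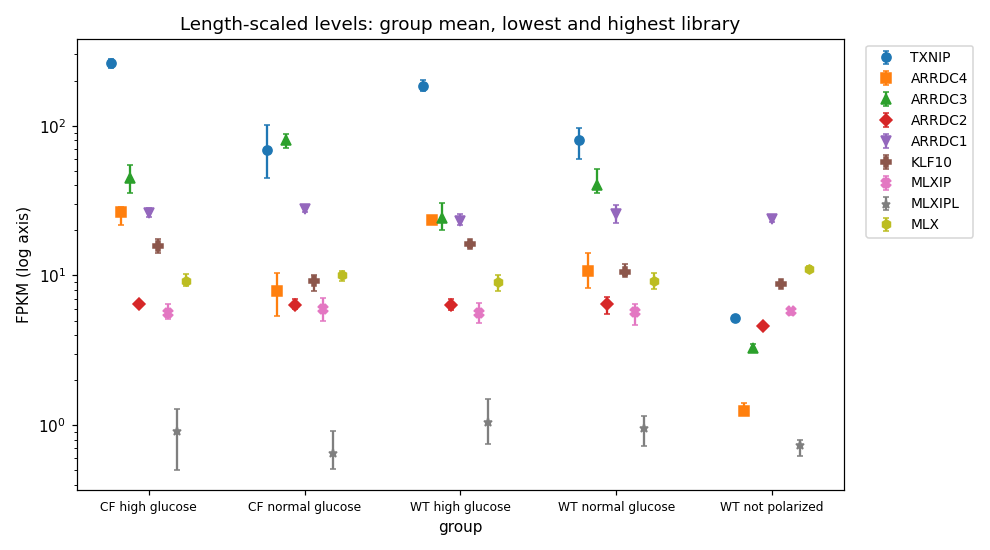
FPKM of the 9 genes (log axis) in the 5 groups, with points at the group mean and bars from the lowest to the highest library. TXNIP runs from 262 FPKM in CF cells in high glucose to 5.18 FPKM in WT cells that were not polarized, while ARRDC1 and MLXIP stay within a narrow band and MLXIPL is lowest throughout.

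The first question was how the 9 genes responded to high glucose. In CF cells TXNIP, ARRDC4 and KLF10 rose and ARRDC3 fell, which is 3 higher and 1 lower of 9, while 8.41% of all 16338 genes tested were called (4.27% higher and 4.14% lower, adjusted p under 0.05 in edgeR's quasi-likelihood test). In WT cells the same 3 rose and the same 1 fell, with 2.96% of genes called (1.49% higher and 1.47% lower). The same 4 of the 9 genes had no overlap between the glucose groups in either line, against 4.66% of all genes in CF and 4.09% in WT cells. Calls and overlap rest on the same libraries, so the lack of overlap is no separate evidence for these 4. The 3 factors MLXIP, MLXIPL and MLX, and ARRDC1 and ARRDC2, were called in neither line. The median log2 fold change of the 9 genes was 0.0025 in CF and -0.014 in WT cells, beside -3.6e-05 and 0.00051 over all genes tested.

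TXNIP (ENSG00000265972, GRCh38 chromosome 1, 145992435 to 145996600, minus strand) had between 891 and 1008 CPM, with a median of 948, in CF cells in high glucose, against 162 to 366 CPM, with a median of 237, in CF cells in normal glucose. In WT cells it had 665, 733, 711, 614 and 627 CPM in high glucose, against 219 to 354 CPM, with a median of 288, in normal glucose. Every high glucose library of a line was thus above every normal glucose library of that line. The change was 3.78-fold in CF cells (log2 1.92 ± 0.16 SE, adjusted p = 9.07e-08) and 2.29-fold in WT cells (log2 1.20 ± 0.16, adjusted p = 0.000156). Of the 16338 genes, TXNIP ranked 5th by p in CF and 18th in WT cells.

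ARRDC4 (ENSG00000140450, chromosome 15, 97960698 to 97973838, plus strand), the closest relative of TXNIP in its action on glucose uptake, had 89.5 to 116 CPM, with a median of 112, in CF cells in high glucose, against 21.9 to 42.1 CPM, with a median of 32.6, in normal glucose. In WT cells in high glucose it had 97.0, 97.2, 101, 92.8 and 94.7 CPM, against 33.8 to 57.8 CPM, with a median of 42.0, in normal glucose. In high glucose the libraries of the 2 lines overlapped. The change was 3.35-fold in CF cells (log2 1.75 ± 0.14, adjusted p = 3.58e-08), ranked 2nd of all genes by p, and 2.19-fold in WT cells (log2 1.13 ± 0.14, adjusted p = 6.48e-05), ranked 5th.

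KLF10 (ENSG00000155090, chromosome 8, 102648779 to 102655902, minus strand) had 56.9 to 70.0 CPM, with a median of 62.8, in CF cells in high glucose, against 32.1 to 40.1 CPM, with a median of 37.1, in normal glucose. In WT cells in high glucose it had 63.4, 67.4, 64.1, 65.4 and 66.3 CPM, against 40.7 to 47.9 CPM, with a median of 41.4, in normal glucose. Its log2 change was smaller than that of TXNIP, and it ranked 4th by p in CF and 3rd in WT cells. The change was 1.72-fold in CF cells (log2 0.78 ± 0.07, adjusted p = 5.43e-08) and 1.53-fold in WT cells (log2 0.61 ± 0.07, adjusted p = 2.14e-05).

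ARRDC3 (ENSG00000113369, chromosome 5, 91368724 to 91383359, minus strand) moved the other way. It had 176 to 269 CPM, with a median of 221, in CF cells in high glucose, against 351 to 442 CPM, with a median of 401, in normal glucose. In WT cells in high glucose it had 100, 151, 106, 122 and 121 CPM, against 178 to 259 CPM, with a median of 192, in normal glucose. Every high glucose library was below every normal glucose library of its line. The level in high glucose was 0.559 of that in normal glucose in CF cells (log2 -0.84 ± 0.11, adjusted p = 3.72e-05) and 0.600 of it in WT cells (log2 -0.74 ± 0.12, adjusted p = 0.00092). Among libraries numbered 1 to 3 alone the WT change was as large (log2 -0.78) but was not called (adjusted p = 0.0696).

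**Figure D2:**
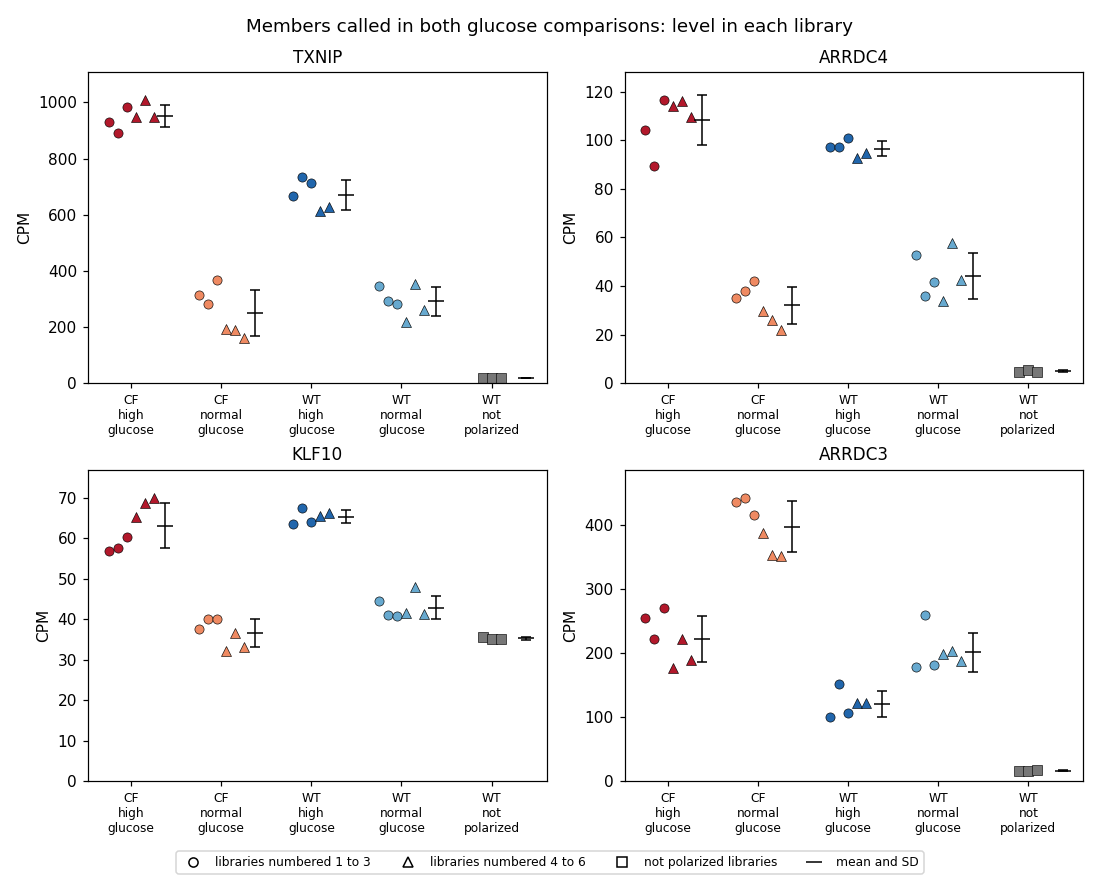
CPM of TXNIP, ARRDC4, KLF10 and ARRDC3 in each library of the 5 groups (circles, libraries numbered 1 to 3; triangles, numbered from 4; squares, not polarized), with the mean and SD of each group. In both lines TXNIP, ARRDC4 and KLF10 are above, and ARRDC3 below, all of the normal glucose libraries in high glucose.

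The glucose-sensing factors themselves had overlapping libraries in the 2 glucose groups of each line. MLXIP (ENSG00000175727, chromosome 12, 122078722 to 122147347, plus strand) averaged 78.0 ± 7.18 CPM (SD, n = 6) in CF cells in high glucose and 82.7 ± 13.3 CPM (n = 6) in CF cells kept in normal glucose, 78.6 ± 11.8 CPM (n = 5) in WT cells in high glucose and 79.7 ± 10.2 CPM (n = 6) in WT cells in normal glucose. Its log2 fold change was -0.08 in CF cells (95% interval -0.29 to 0.13) and -0.01 in WT cells (-0.24 to 0.21). MLX (ENSG00000108788, chromosome 17, 42567068 to 42573239, plus strand) averaged 39.1 ± 2.55 CPM in CF cells in high glucose and 43.2 ± 2.87 CPM in CF cells in normal glucose, 38.8 ± 3.94 CPM in WT cells in high glucose and 39.6 ± 3.50 CPM in WT cells in normal glucose. Its log2 fold change was -0.14 in CF (adjusted p = 0.232) and -0.03 in WT cells (adjusted p = 0.919). In CF libraries numbered 4 to 6 alone both were called lower in high glucose, MLXIP by log2 -0.18 (adjusted p = 0.048) and MLX by log2 -0.24 (adjusted p = 0.0286).

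MLXIPL (ENSG00000009950, chromosome 7, 73593194 to 73624543, minus strand) rested on 37 to 145 counts per library, which limits what could be detected. It had 2.43 to 6.14 CPM, with a median of 4.60, in CF cells in high glucose, against 2.42 to 4.42 CPM, with a median of 2.96, in normal glucose. WT cells had 5.27, 3.62, 3.67, 5.65 and 7.20 CPM in high glucose, against 3.53 to 5.55 CPM, with a median of 4.77, in normal glucose. The groups overlapped in both lines. The log2 fold change was 0.50 ± 0.21 in CF cells (adjusted p = 0.149) and 0.15 ± 0.21 in WT cells (adjusted p = 0.826). With a term for the set of library numbers the CF difference was called (log2 0.49, adjusted p = 0.0195), as it was in libraries numbered 4 to 6 alone (log2 0.60, adjusted p = 0.0284). MLXIPL and MLX each overlap another gene in the annotation. The intronic gene inside MLXIPL had at most 6 counts. PSMC3IP, on the strand opposite MLX, had a median of 296 counts per library. Summed over all libraries, its counts were 42.0% of those of MLX. The sources used here do not say whether counting used strand, and reads of such pairs may be mixed.

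The other 2 alpha-arrestins were not called for glucose in either line. ARRDC1 (ENSG00000197070, chromosome 9, 137605654 to 137615360, plus strand) averaged 101 ± 4.71 CPM in CF cells in high glucose and 106 ± 2.68 CPM in CF cells in normal glucose, 88.4 ± 6.59 CPM in WT cells in high glucose and 98.6 ± 9.44 CPM in WT cells in normal glucose. Its log2 fold change was -0.07 in CF (adjusted p = 0.574) and -0.16 in WT cells (adjusted p = 0.190), where libraries numbered from 4 alone gave a call (log2 -0.24, adjusted p = 0.045). The antisense gene ARRDC1-AS1 had 9.45% of the counts of ARRDC1, both summed over all libraries. ARRDC2 (ENSG00000105643, chromosome 19, 18001132 to 18014102, plus strand) averaged 29.8 ± 0.99 CPM in CF cells in high glucose and 29.7 ± 2.05 CPM in CF cells in normal glucose, 29.7 ± 2.36 CPM in WT cells in high glucose and 30.0 ± 3.38 CPM in WT cells in normal glucose. The 95% intervals of its log2 fold change, -0.14 to 0.15 in CF and -0.17 to 0.14 in WT cells, bound any response to high glucose.

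**Figure D3:**
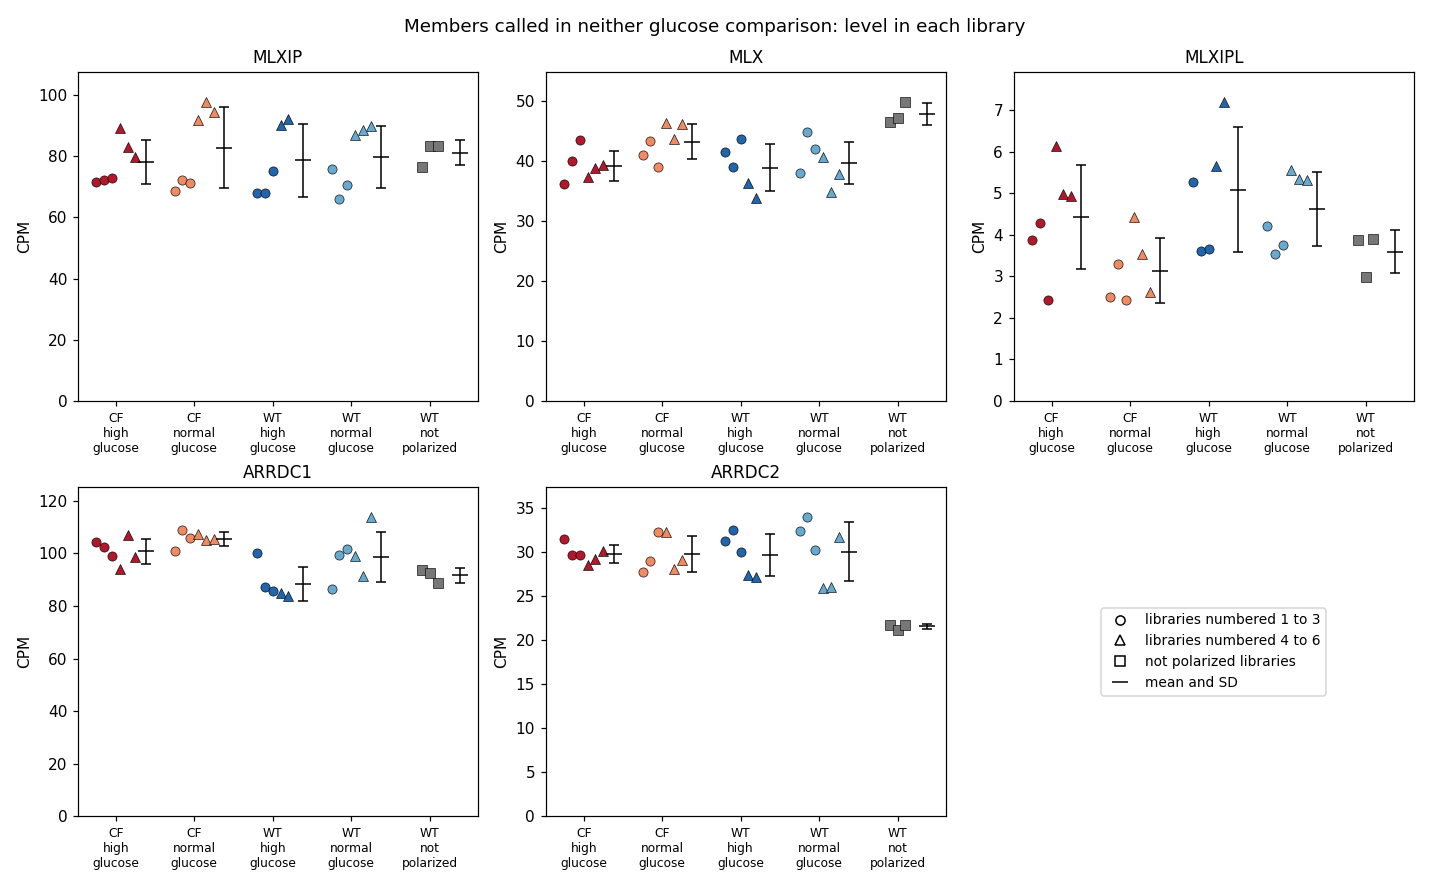
CPM of MLXIP, MLX, MLXIPL, ARRDC1 and ARRDC2 in each library of the 5 groups, drawn as in the plot of the 4 called genes. The glucose groups of a line overlap for all 5 genes, MLXIP is higher in the libraries numbered from 4 (triangles) in every glucose group, and ARRDC2 is lower in the not polarized libraries.

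An interaction term tested whether the lines responded differently to glucose. It called 0.0367% of genes (6 of 16338, with 0.0122% higher and 0.0245% lower) and none of the 9. DESeq2 and limma on FPKM also called 0 of the 9. At an unadjusted p under 0.05 were 2 of the 9, both higher, beside 1109 of all 16338 genes. The largest differences were those of TXNIP and ARRDC4. The response of TXNIP was larger in CF than in WT cells by 0.72 ± 0.23 on the log2 scale (95% interval 0.25 to 1.19, unadjusted p = 0.00413, adjusted p = 0.364), and that of ARRDC4 by 0.61 ± 0.19 (0.21 to 1.01, adjusted p = 0.364). Over all alternatives run, the adjusted p lay between 0.054 and 0.677 for TXNIP and between 0.128 and 0.739 for ARRDC4. The difference for KLF10 was 0.17 ± 0.10 (adjusted p = 0.821) and that for ARRDC3 was -0.10 ± 0.16 (adjusted p = 0.999).

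The size of these differences depended on the set of library numbers. In CF cells in normal glucose TXNIP averaged 181 ± 16.6 CPM (SD, n = 3) in libraries 4 to 6 and 321 ± 42.3 CPM (n = 3) in libraries 1 to 3, without overlap. In high glucose the same 2 sets of CF libraries averaged 968 ± 34.5 and 935 ± 46.6 CPM and overlapped. The log2 response of TXNIP in CF cells was accordingly 2.42 in libraries 4 to 6 and 1.54 in libraries 1 to 3, and in WT cells it was 1.18 and 1.20 in the 2 sets. The difference between lines was 1.24 (adjusted p = 0.054) in libraries 4 to 6 and 0.34 (adjusted p = 0.473) in libraries 1 to 3. ARRDC4 showed the same split, with a difference of 1.04 (adjusted p = 0.134) in libraries 4 to 6 and 0.24 (adjusted p = 0.739) in libraries 1 to 3. KLF10 differed by 0.39 (adjusted p = 0.0503) in libraries 4 to 6 and by -0.07 (adjusted p = 0.887) in libraries 1 to 3.

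CF and WT cells were then compared at each glucose level. These comparisons share their libraries with the glucose comparisons above. In normal glucose ARRDC3 was higher in CF cells, and ARRDC4, KLF10 and MLXIPL were lower, which is 1 higher and 3 lower of 9 with 24.4% of all genes called (11.4% higher and 13% lower). In high glucose TXNIP, ARRDC3 and ARRDC1 were higher in CF cells and none was lower (0 also at an unadjusted p under 0.05 and by DESeq2), with 19.9% of genes called (9.35% higher and 10.6% lower). Counts this small describe the 9 genes and do not set them apart from these backgrounds. ARRDC3 and KLF10 in normal glucose, and TXNIP and ARRDC3 in high glucose, had no overlap between the lines, as did 13.1% and 14.1% of all genes.

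ARRDC3 was the member that differed most between the lines, and it did so at both glucose levels. It averaged 397 ± 40.2 CPM (n = 6) in CF cells and 201 ± 30.0 CPM (n = 6) in WT cells in normal glucose, a 1.98-fold difference (log2 0.99 ± 0.11, adjusted p = 2.47e-07). In high glucose it averaged 222 ± 36.2 CPM (n = 6) in CF cells and 120 ± 19.8 CPM (n = 5) in WT cells, a 1.85-fold difference (log2 0.88 ± 0.12, adjusted p = 3.99e-06). It was called in both sets of library numbers at both glucose levels. Because ARRDC3 fell with glucose in each line, CF cells in high glucose (176 to 269 CPM) overlapped WT cells in normal glucose (178 to 259 CPM).

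TXNIP was 1.42-fold higher in CF than in WT cells in high glucose (log2 0.50 ± 0.16, adjusted p = 0.0300). It was no longer called when CF high glucose 5 (adjusted p = 0.0527) or WT high glucose 4 (0.0503) was left out, with no filter on low counts (0.0918), or on FPKM without a filter (0.063). The high glucose difference was called in libraries 1 to 3 alone (log2 0.41, adjusted p = 0.00135) and in those numbered from 4 alone (log2 0.62, adjusted p = 0.0416). In normal glucose TXNIP was not called (log2 -0.21 ± 0.16, adjusted p = 0.368). There it was 0.07 (adjusted p = 0.615) in libraries 1 to 3 and -0.62 (adjusted p = 0.0274) in libraries 4 to 6, where CF cells averaged 181 ± 16.6 CPM and WT cells 278 ± 69.5 CPM.

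ARRDC4 was lower in CF cells in normal glucose by 0.45 on the log2 scale (log2 -0.45 ± 0.14, adjusted p = 0.0168), at 0.734 of the WT level with overlapping libraries. The call was lost without WT normal glucose 5 (log2 -0.34, adjusted p = 0.0598), without the filter (0.0612), with these 12 libraries fitted alone (0.068) and in libraries 1 to 3 alone (log2 -0.16, adjusted p = 0.397). KLF10 was at 0.857 of the WT level in CF cells in normal glucose (log2 -0.22 ± 0.07, adjusted p = 0.0156). This did not hold when CF normal glucose 4 (0.0628) or 6 (0.0575) was left out, without WT normal glucose 5 (0.0666) and in libraries 1 to 3 alone (log2 -0.09, adjusted p = 0.431). In high glucose neither was called (ARRDC4 log2 0.17, adjusted p = 0.477; KLF10 log2 -0.05, adjusted p = 0.701).

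MLXIPL was at 0.677 of the WT level in CF cells in normal glucose (log2 -0.56 ± 0.21, adjusted p = 0.0472), and this call was lost in 9 of the 12 fits that left out a library (adjusted p up to 0.114), on log2 FPKM plus 1 (log2 -0.24, adjusted p = 0.0971), with RLE factors (0.0511) and in libraries 1 to 3 alone (0.162). In high glucose its log2 difference was -0.20 (adjusted p = 0.578). ARRDC1 averaged 101 ± 4.71 CPM in CF cells and 88.4 ± 6.59 CPM in WT cells in high glucose, a 1.14-fold difference (log2 0.19 ± 0.06, adjusted p = 0.0256). The call did not hold with CF high glucose 1 (0.0544) or 5 (0.0671) left out, without WT high glucose 3 (0.0591), 4 (0.0616) or 5 (0.0685), in libraries 1 to 3 alone (0.127), or without the filter (0.0778). In normal glucose it was called when WT normal glucose 6 was left out (log2 0.15, adjusted p = 0.0409). MLXIP, MLX and ARRDC2 were not called between the lines at either glucose level, except for MLX in normal glucose in libraries 4 to 6 alone (log2 0.26, adjusted p = 0.00623).

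Markers of another cell type moved with the comparison of the lines. The summed endothelial list was 32.5 to 64.1 CPM in CF and at most 25.2 CPM in WT cells in normal glucose, and 43.3 to 49.8 CPM in CF and 22.2 to 29.4 CPM in WT cells in high glucose. Of its 4 genes, PECAM1 and VWF were under 1 CPM. The fibroblast list, with 5 of 6 genes under 1 CPM, summed to 15.3 to 25.5 CPM in CF and 26.9 to 43.3 CPM in WT cells in normal glucose, and to an overlapping 18.3 to 29.5 CPM in CF and 26.7 to 41.0 CPM in WT cells in high glucose. Of its 2 genes that passed the filter, 1 was higher and 1 lower in CF cells in normal glucose, and in high glucose 1 was lower. Of the 8 epithelial markers, 3 were called higher and 0 lower in CF cells at each glucose level. Of all genes, 11.4% were called higher in normal and 9.35% in high glucose. The part of these markers in the results was not tested. Each sample came from 1 line. In bulk samples, fewer cells expressing a gene and less of its RNA per cell cannot be told apart.

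The comparison of polarized with not polarized WT cells in normal glucose held the largest differences of TXNIP, ARRDC3 and ARRDC4. TXNIP, ARRDC3, ARRDC4, ARRDC2 and KLF10 were higher and MLX was lower in polarized cells, which is 5 higher and 1 lower of 9, where 50% of 16105 genes were called (26% higher and 24% lower). The same 6 genes had no overlap, as had 46.6% of all genes. The count is not read beyond this background. The log2 fold changes of the first 3 were 3.11 to 3.96, beside a median of 0.02 over all genes.

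TXNIP had 219 to 354 CPM, with a median of 288, in polarized cells, against 18.5, 19.4 and 19.0 CPM in cells that were not polarized. This was a 15.6-fold difference (log2 3.96 ± 0.16, adjusted p = 4.63e-10). ARRDC3 had 178 to 259 CPM, with a median of 192, against 15.9, 15.6 and 17.5 CPM, a 12.4-fold difference (log2 3.64 ± 0.13, adjusted p = 1.64e-10). The genes that glucose moved in opposite directions were thus both higher in polarized cells. ARRDC4 had 33.8 to 57.8 CPM, with a median of 42.0, in polarized cells, against 4.88, 5.72 and 4.83 CPM in cells that were not polarized, an 8.64-fold difference (log2 3.11 ± 0.19, adjusted p = 2.96e-08). By p these were the 55th, 34th and 220th of the 16105 genes.

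The other 3 called genes had smaller fold changes. KLF10 had 40.7 to 47.9 CPM in polarized cells, against 35.6, 35.1 and 35.0 CPM in cells that were not polarized (1.23-fold, log2 0.30 ± 0.07, adjusted p = 0.00402). ARRDC2 had 25.9 to 33.9 CPM in polarized cells, against 21.7, 21.2 and 21.7 CPM (1.41-fold, log2 0.49 ± 0.10, adjusted p = 0.000916). MLX had 34.8 to 44.7 CPM in polarized cells, against 46.5, 47.1 and 49.8 CPM, so that it was at 0.839 of the not polarized level (log2 -0.25 ± 0.08, adjusted p = 0.0177). The MLX call was lost without not polarized library 3 (log2 -0.23, adjusted p = 0.0836). MLXIP (log2 -0.01, adjusted p = 0.962) and ARRDC1 (log2 0.12, adjusted p = 0.217) were not called, nor was MLXIPL (log2 0.39, adjusted p = 0.0993), which was called when WT normal glucose 2 was left out (log2 0.46, adjusted p = 0.0435). The summed endothelial list was at most 25.2 CPM in polarized and 44.8 to 48.8 CPM in not polarized cells, and the fibroblast list 26.9 to 43.3 CPM in polarized and at most 14.1 CPM in not polarized cells. Their part in these results was not tested.

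**Figure D4:**
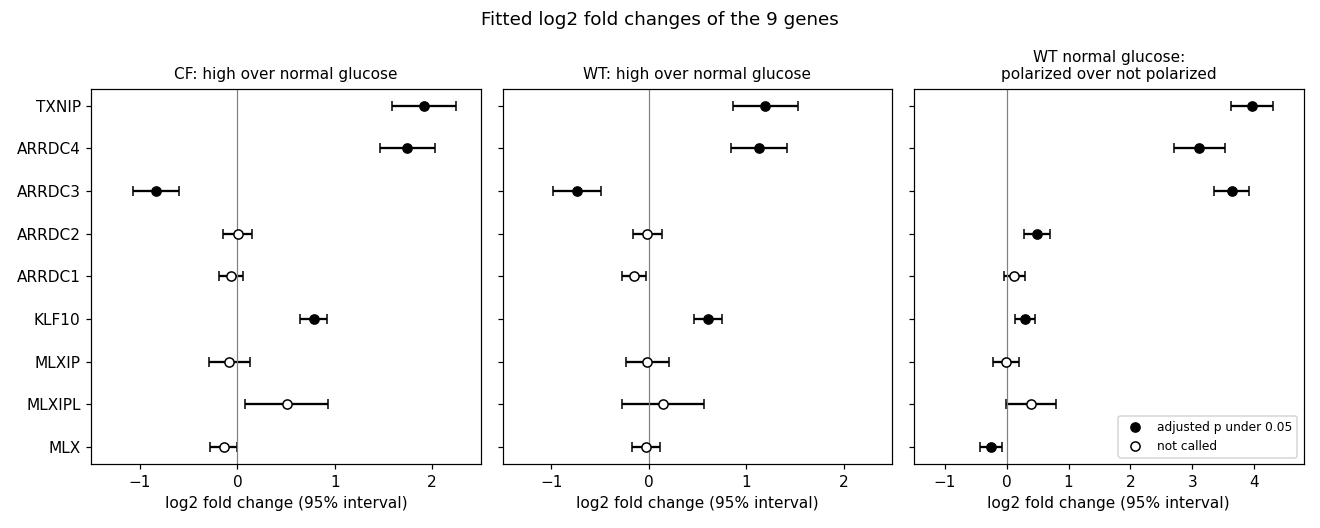
Fitted log2 fold changes of the 9 genes with 95% intervals, for high over normal glucose in CF cells, the same in WT cells, and polarized over not polarized WT cells (filled, adjusted p under 0.05). TXNIP and ARRDC4 are to the right in all 3 panels, while ARRDC3 is to the left in both glucose panels (log2 -0.84 and -0.74) and to the right in the polarization panel (log2 3.64).

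TXNIP and ARRDC4 kept to each other closely across libraries. Over the 23 glucose libraries the Pearson r of log2 CPM with TXNIP was 0.977 for ARRDC4 and 0.936 for KLF10, and among the 11179 genes averaging at least 5 CPM the highest r outside the 9 was 0.929, for the retinol dehydrogenase RDH11. After the group means were removed, r with TXNIP was 0.887 for ARRDC4, 0.682 for KLF10, 0.336 for ARRDC3 and -0.574 for MLXIP. Placed among the genes outside the 9 by this r, KLF10 came 171st. With the means of group and of number set both removed, r with TXNIP was 0.871 for ARRDC4, 0.689 for KLF10 and 0.263 for MLXIP. The negative value of MLXIP thus went with the split by library number. On the same scale it was 0.195 for ARRDC2, 0.147 for ARRDC3, -0.105 for MLXIPL, -0.406 for ARRDC1 and -0.565 for MLX. These values describe 23 libraries that share groups, number sets and scaling, and a part of each r is the difference between groups.

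The genes outside the 9 that were most like TXNIP over the 23 libraries were RDH11, the sphingosine phosphate receptor S1PR3 (r = 0.905), the anion channel subunit LRRC8D (0.876), COQ8A (0.875) and APOBEC3C (0.873). Those that ran most against it were FNIP1 (-0.923), the adaptor TICAM1 (-0.919) and BRI3 (-0.917). With group means removed the highest were MTURN (0.879), LGALSL (0.844), ZNF571 (0.837), CDKN2C (0.825) and LACTB2 (0.809), none of which was also among the first 5. With the means of number set removed as well, r was 0.482 for LACTB2 to 0.716 for MTURN in these 5. In the 5 genes most like TXNIP over all libraries it was then 0.422 for RDH11, 0.0421 for S1PR3, -0.0952 for LRRC8D, -0.0532 for COQ8A and 0.599 for APOBEC3C, and it was -0.575 for FNIP1, 0.0736 for TICAM1 and -0.251 for BRI3. RDH11 was called higher in high glucose in both lines (CF log2 0.37, adjusted p = 0.000165; WT log2 0.38, adjusted p = 0.00081), as was S1PR3 (CF log2 0.78, adjusted p = 7.25e-06; WT log2 0.74, adjusted p = 8.01e-05). RDH11 and S1PR3 were picked by r with TXNIP over these same libraries, so these calls are no separate evidence. For KLF10 the nearest gene outside the 9 was the sodium pump subunit ATP1B1 (0.915, and 0.106 with the means of group and number set removed), and ARRDC4 was nearer, at 0.969. With group means alone removed, TMEM229B (0.7635) was nearer to KLF10 than ARRDC4 (0.7105).

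The ratio of TXNIP to ARRDC4 on FPKM was taken in each library. It was 9.34 to 11.2, with a median of 9.74, in CF cells in high glucose and 7.22 to 10.0, with a median of 8.35, in CF cells in normal glucose. In WT cells it was 7.44 to 8.48, with a median of 7.70, in high glucose and 6.88 to 9.20, with a median of 7.34, in normal glucose, and it was 3.81 to 4.42, with a median of 4.26, in cells that were not polarized. The glucose groups of each line overlapped in this ratio, and the CF and WT groups did not overlap in high glucose. The ratio of TXNIP to ARRDC3 had to separate the glucose groups, because TXNIP rose and ARRDC3 fell without overlap in each line. It was 4.97 to 7.33 in CF cells in high glucose against 0.629 to 1.20 in normal glucose. In WT cells it was 6.60 to 9.15 in high glucose against 1.51 to 2.66 in normal glucose.

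**Figure D5:**
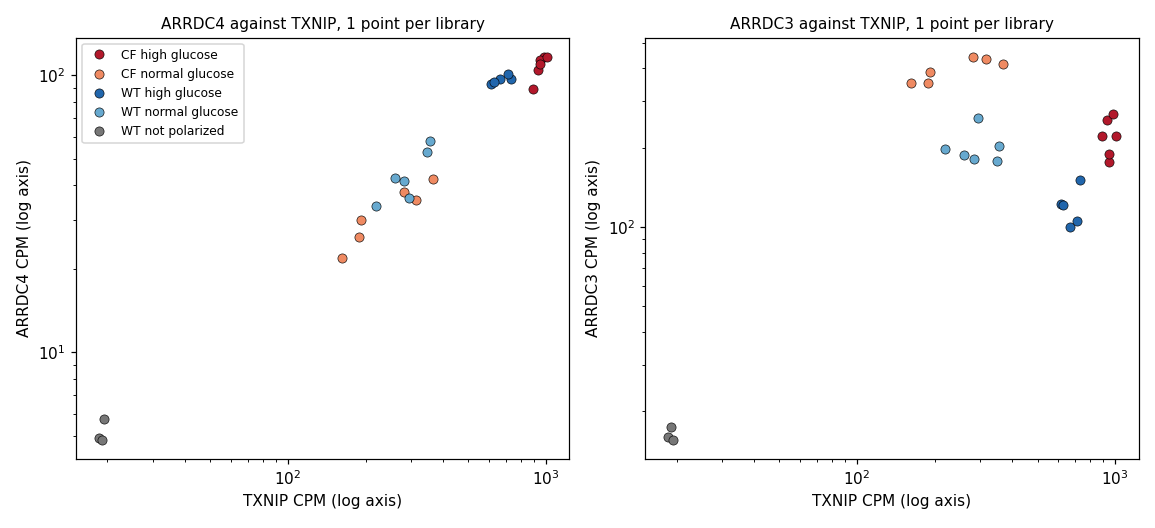
CPM of ARRDC4 (left) and ARRDC3 (right) against TXNIP in each of the 26 libraries, on log axes, coloured by group. ARRDC4 lies along 1 band with TXNIP from the not polarized libraries (19.0 CPM TXNIP as a mean) to CF cells in high glucose (951 CPM), while ARRDC3 separates by line and falls with glucose within each line.

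Other genes of the pathway were counted in lists, to be read beside the 4.27% of all genes called higher and 4.14% called lower with glucose in CF cells, and the 1.49% and 1.47% in WT cells. Counts at an unadjusted p under 0.05 are to be read beside 3490 of all 16338 genes in CF and 2474 in WT cells. With lists this short, a count of 1 to 3 is a description and does not set a list apart. Of 4 tested hexokinase and glucose-6-phosphatase genes, HK2, the inducible hexokinase, was the 1 called in either glucose comparison. It averaged 235 ± 34.5 CPM in CF cells in high glucose and 685 ± 166 CPM in CF cells in normal glucose, 206 ± 27.0 CPM in WT cells in high glucose and 389 ± 62.4 CPM in WT cells in normal glucose (CF log2 -1.54 ± 0.14, adjusted p = 1.98e-07; WT log2 -0.91 ± 0.15, adjusted p = 0.00081). Of 7 reported partners of TXNIP, the transporter gene SLC2A1 was the 1 called, and it fell in both lines (CF log2 -0.54 ± 0.08, adjusted p = 8.11e-05; WT log2 -0.38 ± 0.08, adjusted p = 0.0102). TXN, which encodes the thioredoxin that TXNIP binds, was not called in CF (log2 0.14, adjusted p = 0.826) or WT cells (log2 0.19, adjusted p = 0.831).

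Of 13 thioredoxin, glutaredoxin and peroxiredoxin genes, 2 rose with glucose in CF cells, GLRX (log2 0.75 ± 0.19, adjusted p = 0.0145) and PRDX6 (log2 0.23 ± 0.06, adjusted p = 0.0158). In WT cells 0 of the 13 were called by edgeR, DESeq2 or limma on FPKM, and 2 had an unadjusted p under 0.05 in edgeR. PRDX6 was not called with CF high glucose 2 (adjusted p = 0.0636) or CF normal glucose 4 (0.0573) left out. Of 8 tested NEDD4-family ligases, NEDD4L (log2 -0.36 ± 0.09, adjusted p = 0.011) fell with glucose in CF cells, a call lost on FPKM without a filter (adjusted p = 0.0532), and in WT cells 0 were called by the 3 tools (1 at an unadjusted p under 0.05). ITCH, the ligase that ubiquitinates TXNIP, was not called with glucose in CF (log2 -0.12, adjusted p = 0.0659) or WT cells (log2 0.02, adjusted p = 0.880), and in CF cells it was called under several alternatives, DESeq2 among them (log2 -0.13, adjusted p = 0.00164).

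In the MAX and MYC network, to which MLX and the Mondo factors are linked, 3 of 10 genes fell with glucose in CF cells. In WT cells 0 were called by the 3 tools (3 at an unadjusted p under 0.05). MXI1, a repressor that pairs with MAX, averaged 53.9 ± 7.33 CPM in CF cells in high glucose and 77.9 ± 7.43 CPM in CF cells in normal glucose (log2 -0.53 ± 0.08, adjusted p = 0.00011). MYC fell as well (log2 -0.31 ± 0.07, adjusted p = 0.00822), but not in libraries 1 to 3 alone (log2 -0.05, adjusted p = 0.742). Of 9 tested liver-type targets of ChREBP, 2 rose in CF cells (4 by DESeq2), and in WT cells edgeR called 0 and DESeq2 1 (2 at an unadjusted p under 0.05). In CF cells KHK, the fructose kinase, rose by log2 0.56 ± 0.13 (adjusted p = 0.00917) and the malic enzyme ME1 by log2 0.41 ± 0.12 (adjusted p = 0.0345). The ME1 call was lost when any 1 of 8 of the 12 CF libraries was left out and in libraries 4 to 6 alone (log2 0.04, adjusted p = 0.888). Of 12 other tested KLF genes, 2 were higher and 1 lower with glucose in CF cells, and 1 was higher and 1 lower in WT cells. KLF11, the nearest relative of KLF10, was the riser in both lines (CF log2 0.35 ± 0.08, adjusted p = 0.00377; WT log2 0.30 ± 0.08, adjusted p = 0.0385), although the WT call was lost in 8 of the 11 fits that left out a library and the CF call in libraries 1 to 3 alone (log2 0.26, adjusted p = 0.0818). KLF6 fell in CF cells (log2 -0.40 ± 0.10, adjusted p = 0.00944), and KLF16 in WT cells (log2 -0.28 ± 0.07, adjusted p = 0.0274), a call lost in 9 of 23 alternatives, 6 of them fits without 1 library. Of 6 genes of AMPK subunits and its kinase LKB1, 0 were called in either line by the 3 tools (1 in WT and 0 in CF cells at an unadjusted p under 0.05). Of 4 tested other arrestin-fold genes ARRB1 rose in CF cells (log2 0.33 ± 0.08, adjusted p = 0.0108), but was not called in libraries 4 to 6 alone (log2 0.18, adjusted p = 0.334).

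The same lists were counted between the lines, where 24.4% of all genes were called in normal glucose (11.4% higher and 13% lower in CF cells) and 19.9% in high glucose (9.35% higher and 10.6% lower). PRDX2, a peroxiredoxin, had the lowest adjusted p of the thioredoxin list at both glucose levels. It averaged 4.66 ± 0.71 CPM in CF and 24.7 ± 1.56 CPM in WT cells in normal glucose (log2 -2.40 ± 0.09, adjusted p = 2e-16), and its log2 difference in high glucose was -2.27 ± 0.09 (adjusted p = 9e-16). Of the 13 genes of that list, 4 were lower in CF cells in normal glucose, PRDX6 next by p (log2 -0.39, adjusted p = 1.12e-05), and in high glucose 3 were lower and 1 higher, with the thioredoxin reductase TXNRD1 lower (log2 -0.43, adjusted p = 1.68e-05). In the MAX and MYC network 4 of 10 genes were higher in CF cells in normal glucose and 3 in high glucose. Of these, MYCN was higher by log2 1.31 in normal glucose (adjusted p = 1.5e-05) and 0.74 in high glucose (adjusted p = 0.00967). The MAX partner MXD1 was higher by log2 0.78 in normal glucose (adjusted p = 4.17e-07) and 0.31 in high glucose (adjusted p = 0.0264), the high glucose call being lost in 8 of 23 alternatives, 6 of them fits without 1 library.

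Of the 9 liver-type targets of ChREBP tested, 5 were lower in CF cells in normal glucose and 1 in high glucose. ME1 averaged 6.61 ± 1.52 CPM in CF and 12.5 ± 0.93 CPM in WT cells in normal glucose (log2 -0.92 ± 0.12, adjusted p = 1.27e-06) and was the 1 called in high glucose (log2 -0.72, adjusted p = 5.63e-05). The carboxylase gene ACACA was lower in normal glucose (log2 -0.26, adjusted p = 0.0193), a call lost in 5 of 24 alternatives. Of the 12 other KLF genes, 2 were higher and 4 lower in CF cells in normal glucose, and 1 was higher and 4 were lower in high glucose. KLF8 averaged 1.30 ± 0.50 CPM in CF and 5.87 ± 0.90 CPM in WT cells in normal glucose (log2 -2.17 ± 0.22, adjusted p = 2.37e-08), and its difference in high glucose was log2 -2.32 (adjusted p = 1.04e-08). KLF5 was higher in CF cells in normal glucose (log2 0.44, adjusted p = 0.00018) and KLF2 lower in high glucose (log2 -1.38, adjusted p = 6.81e-06). Of the 7 reported partners of TXNIP, 2 were higher and 1 lower in CF cells in normal glucose, and 1 was higher and 1 lower in high glucose. DDIT4, which encodes REDD1, was higher in normal glucose (log2 0.74, adjusted p = 0.000186) and in high glucose (log2 0.64, adjusted p = 0.00175). It was not called in high glucose in libraries 4 to 6 alone (log2 0.10, adjusted p = 0.281). SLC2A1 was higher in normal glucose (log2 0.24, adjusted p = 0.0248; lost in 7 of 24 alternatives), and the inflammasome gene NLRP3 was lower in high glucose (log2 -0.69, adjusted p = 0.00379).

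Of 4 tested hexokinase and glucose-6-phosphatase genes, 2 were higher and 1 lower in CF cells in normal glucose, and 0 were called in high glucose. The 2 higher ones were HK2 (log2 0.82, adjusted p = 5.88e-05) and HK1 (log2 0.32, adjusted p = 0.00844). Of 6 genes of AMPK subunits and LKB1, 2 were higher and 2 lower in CF cells in normal glucose, and 1 was higher in high glucose. The AMPK subunit gene PRKAG2 was higher in normal glucose (log2 0.42, adjusted p = 2.36e-05) and in high glucose (log2 0.37, adjusted p = 0.000247). STK11, which encodes LKB1, was lower in normal glucose (log2 -0.36, adjusted p = 0.000444). ARRB1 (log2 -0.40, adjusted p = 0.000453; lost in 1 of 24 alternatives) and ARRB2 (log2 -0.20, adjusted p = 0.0062; lost in 2 of 24) were lower in CF cells in normal glucose. Among the NEDD4-family ligases, WWP2 was lower in normal glucose (log2 -0.29, adjusted p = 0.0164; lost in 5 of 24 alternatives), and SMURF1 (log2 -0.24, adjusted p = 0.0381; lost in 11 of 23) and SMURF2 (log2 -0.14, adjusted p = 0.0474; lost in 12 of 23) were lower in high glucose.

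Between polarized and not polarized WT cells, where 50% of all genes were called (26% higher and 24% lower), the counts of the lists are not read beyond that background. In the MAX and MYC network 5 of 10 genes were higher and 2 lower in polarized cells, with MXI1 at 56.8 ± 4.85 CPM in polarized and 26.7 ± 1.40 CPM in not polarized cells (log2 1.11 ± 0.09, adjusted p = 1.99e-07). MYC was at 34.5 ± 0.95 CPM in polarized and 94.6 ± 5.44 CPM in not polarized cells (log2 -1.44 ± 0.06, adjusted p = 3.91e-10). HK2 (log2 1.63 ± 0.13, adjusted p = 2.92e-07) and SLC2A1 (log2 0.66 ± 0.07, adjusted p = 2.6e-06), which fell with glucose, were higher in polarized cells. Of 9 tested liver-type targets of ChREBP 2 were higher and 4 lower, ME1 (log2 -1.08 ± 0.08, adjusted p = 1.39e-07) and the elongase ELOVL6 (log2 -0.52, adjusted p = 0.000338) among the lower. Of 8 tested NEDD4-family ligases 4 were lower, NEDD4 (log2 -0.30 ± 0.05, adjusted p = 0.000322), SMURF2 (log2 -0.31, adjusted p = 0.000532) and ITCH (log2 -0.23 ± 0.05, adjusted p = 0.00289) among them. Of 13 tested other KLF genes 4 were higher and 5 lower, KLF4 (log2 -0.92, adjusted p = 6.7e-07) and KLF3 (log2 -0.69, adjusted p = 2.17e-06) among the lower. Of 13 thioredoxin, glutaredoxin and peroxiredoxin genes 2 were higher and 4 lower, PRDX6 (log2 -0.63, adjusted p = 1.18e-06) and PRDX2 (log2 -0.52, adjusted p = 7.66e-05) among the lower. Of 6 genes of AMPK subunits and LKB1 2 were lower, PRKAG2 (log2 -0.56, adjusted p = 5.62e-06) and PRKAA1 (log2 -0.33, adjusted p = 0.00124). Of 4 tested other arrestin-fold genes 3 were lower, the retromer gene VPS26A (log2 -0.46, adjusted p = 8.17e-05) among them. ARRB1 was also lower (log2 -0.30, adjusted p = 0.0267; lost in 3 of 18 alternatives). Of 7 reported partners of TXNIP 3 were higher and 2 lower in polarized cells, DDIT4 (log2 0.74, adjusted p = 0.000106) among the higher. Of 4 tested hexokinase and glucose-6-phosphatase genes 3 were higher, G6PC3 (log2 0.25, adjusted p = 0.0332, lost in 8 of 18 alternatives) among them.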

How the data were processed

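Human 16HBE cells were profiled by poly-A RNA sequencing in 26 libraries. Per the submitters' processing notes, the aligner was HISAT2 and the genome build hg38. The sources used here give no version, counting tool or strand setting. The authors deposited raw counts per gene and FPKM values, which they scaled to gene length and library total. Positions of the 9 genes equal those of GENCODE release 29. No column was left unmapped and no 2 libraries held identical counts.

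Counts were tested in R 4.3.3 with edgeR 4.0.16 (TMM, filterByExpr with minimum count 10 and minimum total 15, robust quasi-likelihood fits, Benjamini-Hochberg adjustment over all genes tested, threshold 0.05). The 23 glucose libraries shared a fit with 19 residual degrees of freedom and 16338 genes. A separate fit held the WT normal glucose and the not polarized libraries, with 16105 genes. The steps were tested on simulated data. Of simulated 1.5-fold changes, 55.2% were recovered for the difference of the glucose response and 79.1% to 94% in the other comparisons. The simulated counts held no split by library number. Alternatives used DESeq2 1.42.0, limma 3.58.1 on log2 FPKM with 1 or 0.1 added (unfiltered, or with 0.5 FPKM reached in 3 libraries), RLE factors, no filter, CPM of at least 1, library number as a block or as sets, other libraries in the fit, and each library left out.

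All 9 genes are named in every comparison. From each other list the rule names, in each comparison, up to 2 called genes with the lowest adjusted p, and it allows TXN, ITCH, HK2 and MYC to be named at any time. Of the genes nearest to KLF10, the first of each ranking is printed. The 9 genes, the lists and the tests were chosen with earlier results of these data known. Promoter windows came from RefSeq on GRCh38.p14, at the start nearest to the deposited one. Library numbers were not taken as pairs, and the correlations between same-numbered libraries are given below.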

Additional observations from a re-analysis of the deposited data

Results flagged for a closer look

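In 36 groups of 5 or 6 libraries (9 genes in 4 groups), 2 libraries stood farther from the others of their group than Dixon's 95% limit, where chance gives about 1 in 20 groups. ARRDC1 was highest in WT high glucose 1, at 100.004 CPM, with the nearest library at 87.16 CPM, a gap of 0.803 of the group's range (limit 0.71). ARRDC3 was highest in WT normal glucose 2, at 258.9 CPM, with the nearest at 203.4 CPM, a gap of 0.684 (limit 0.625). Neither gene changed its call in the WT glucose comparison when any single library was left out.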

How the results depend on the processing

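The 21 called results of the 9 genes kept their direction in all 461 alternatives and their call in 425, with the 36 lost calls falling on 7 results given in the report. The 33 uncalled results became called in 11 of 862 alternatives and changed sign in 81, with values given below. Not all of these were near 0 in the main fit. TXNIP between the lines in normal glucose was log2 -0.214 in the main fit and 0.071 in libraries 1 to 3. For the difference of the glucose response, KLF10 was 0.173 in the main fit and -0.068 in libraries 1 to 3. Numbers in a library's name were not taken as pairs. Across genes, the mean r of residuals of same-numbered libraries was 0.206 for glucose in WT and 0.23 in CF cells. Differently numbered libraries within a set gave 0.195 and 0.208, and libraries of different sets -0.199 and -0.214. Between the lines, same-numbered libraries gave 0.132 in normal and 0.2 in high glucose. Differently numbered ones gave 0.14 and 0.202 within a set and -0.137 and -0.201 across sets. For polarization, same-numbered libraries gave -0.00217. The main fits held no term for this split.

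Genes called for glucose in WT cells (484) were 1092 with the replicate block, 1418 with a term for number sets, 823 in libraries 4 to 6 alone, 809 with DESeq2, 319 without the filter, 312 on log2 FPKM plus 1 without a filter, and 281 to 465 with a library left out (281 without WT high glucose 3, 309 without WT normal glucose 6). In CF cells (1374) they were 2561 with the block, 2812 with the term, 2330 in libraries 4 to 6 and 891 without the filter. For the difference (6) they were 73 with the block, 146 with the term, 1 in libraries 1 to 3, 387 in libraries 4 to 6, 67 with DESeq2, 3 on unfiltered FPKM and 0 to 19 with a library left out. CF against WT in high glucose (3253) gave 4973 with the term. The cause was not tested.

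Of the 9 genes, those lower with glucose in WT cells (1) were 0 in libraries 1 to 3 and 2 in libraries 4 to 6, and in CF cells (1) 3 in libraries 4 to 6. Between the lines in normal glucose, 1 higher became 2 in libraries 4 to 6 (1 to 2 with a library left out) and 3 lower became 0 in libraries 1 to 3 (0 to 3; 0 without WT normal glucose 5 and 1 without CF normal glucose 6). In high glucose 3 higher became 1 without the filter (1 to 3; 1 without CF high glucose 5 or WT high glucose 4). For polarization 1 lower became 2 with the replicate block (0 to 1), where MLXIP was called at -0.182 (adjusted p = 0.0365); MLXIPL was called for glucose in CF cells under the block (0.489, adjusted p = 0.0189). The block changed no other call of the 9 genes.

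Sign changes on the log2 scale follow. For glucose in WT cells, MLXIP was 0.009 with the block, 0.015 with the term, 0.059 in libraries 4 to 6 and -0.074 to 0.039 with a library left out, MLX 0 in libraries 1 to 3 and -0.067 to 0.026, ARRDC2 -0.048 to 0.028, MLXIPL -0.012 to 0.248, and TXN -0.007 in libraries 4 to 6. For glucose in CF cells, ARRDC2 was 0 with DESeq2 and with RLE, -0.001 with the CPM filter, -0.026 in libraries 4 to 6, -0.002 with the CF libraries fitted alone and -0.024 to 0.021, and MLXIP 0.022 in libraries 1 to 3. For the difference, ARRDC2 was -0.015 in libraries 4 to 6 and -0.035 to 0.048, MLXIP 0.027 and KLF10 -0.068 in libraries 1 to 3. Between the lines in normal glucose, ARRDC2 was 0.001, 0.002 and 0.001 on FPKM plus 1, plus 0.1 and unfiltered, 0.096 in libraries 4 to 6 and -0.043 to 0.036, and in libraries 1 to 3 TXNIP was 0.071, MLX -0.006 and SLC2A1 -0.023. In high glucose, MLXIP was 0.003, 0.004 and 0.003 on the same FPKM scales, 0.036 in libraries 1 to 3 and -0.06 to 0.053, ARRDC2 -0.048 in libraries 1 to 3 and -0.023 to 0.04, MLX -0.054 in libraries 1 to 3 and -0.033 to 0.06, and KLF10 0.026 in libraries 4 to 6. For polarization MLXIP was 0.004 with the CPM filter and -0.053 to 0.042. MLXIPL, at 37 to 145 counts, is limited by depth.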
